A study of Rattus norvegicus with 13 samples.

Results

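Control islets were compared with a common reference RNA on 5 of the 13 two-colour arrays of the series, those of rat islets that received a beta-galactosidase adenovirus (bGAL). Of the 26962 probes that are not control spots, the 12345 with a value on at least 4 of the 5 arrays were taken, 10042 of them with a value on all 5. Each value is a log2 ratio of islet signal (Cy5) over reference signal (Cy3), so 1 unit is a 2-fold difference. The question is which genes and families islets held at higher or lower levels than the reference pool.

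The islets came from male Sprague-Dawley rats of about 250 g. About 200 islets per condition stood for 18 h in medium with AdCMV-bGAL and for 60 h more without it, at 8 mM glucose and 10% serum, and 500 ng of total RNA was amplified for each array. The other arrays held islets given the hamster form of Nkx6.1 (AdCMV-Nkx6.1, 5 arrays) or the mouse form of Pdx1 (AdCMV-Pdx1, 3 arrays) under the same conditions. All 3 viruses drive their gene from the CMV promoter, so the bGAL islets also carried an adenovirus, and no islets without virus are analysed here. The arrays of a group stand for separate islet isolations, per the series' design text, and each was counted as 1 replicate. The reference is a commercial pool of rat RNA of unstated make-up.

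Pancreatic islets are clusters of endocrine cells. Beta cells make insulin, alpha cells glucagon, delta cells somatostatin and PP cells pancreatic polypeptide, and all of them store peptide hormones in dense-core granules that fuse with the membrane when calcium enters the cell. Mature islet cells divide rarely and share many genes with neurons.

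Both rat insulin genes and a pair of the proliferation genes described further on are shown here by the 250 bases before their annotated start (RefSeq, build GRCr8), because insulin marks the islet-high end and proliferation the islet-low end. Ins1 lies at chr1:261185869-261186118 on the plus strand, Ins2 at chr1:207273806-207274055, Mki67 at chr1:199952594-199952843 and Bub1 at chr3:135504922-135505171, the last 3 on the minus strand. Capitals in the insulin genes mark TAATTA, the core bound by homeodomain proteins, CATCTG, an E-box core, and TATAAA, the TATA box. Capitals in Mki67 mark CCAAT, read on this strand or as ATTGG on the other, and TTTGAA, the core of the cell-cycle homology region.
Ins1: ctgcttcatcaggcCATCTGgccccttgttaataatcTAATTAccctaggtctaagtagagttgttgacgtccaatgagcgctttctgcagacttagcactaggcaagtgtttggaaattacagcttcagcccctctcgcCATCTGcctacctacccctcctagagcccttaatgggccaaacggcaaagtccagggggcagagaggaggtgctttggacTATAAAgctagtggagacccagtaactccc
Ins2: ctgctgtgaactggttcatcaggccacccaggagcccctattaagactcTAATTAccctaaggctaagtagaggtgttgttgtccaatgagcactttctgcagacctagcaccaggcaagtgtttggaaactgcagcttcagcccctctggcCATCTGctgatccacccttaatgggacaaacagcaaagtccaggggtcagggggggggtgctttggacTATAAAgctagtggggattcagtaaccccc
Mki67: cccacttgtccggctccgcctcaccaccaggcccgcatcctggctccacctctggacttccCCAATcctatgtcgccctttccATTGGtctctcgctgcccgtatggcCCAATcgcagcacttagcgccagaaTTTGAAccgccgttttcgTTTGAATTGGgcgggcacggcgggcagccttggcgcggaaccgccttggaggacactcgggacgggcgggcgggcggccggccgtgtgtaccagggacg
Bub1: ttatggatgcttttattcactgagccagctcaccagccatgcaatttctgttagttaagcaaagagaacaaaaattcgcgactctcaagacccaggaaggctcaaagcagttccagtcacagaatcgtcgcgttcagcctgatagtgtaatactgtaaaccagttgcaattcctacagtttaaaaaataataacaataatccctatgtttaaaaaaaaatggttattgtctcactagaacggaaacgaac
The insulin promoters had 206 identical bases in a global alignment, 78.6% of its columns. TAATTA, which is its own complement, stood at -213 to -208 in Ins1 and at -201 to -196 in Ins2. Ins1 held CATCTG at -236 to -231 and at -110 to -105, Ins2 held it at -98 to -93, and both held TATAAA at -30 to -25. In Mki67, 1 of the 2 TTTGAA copies shared a base with an ATTGG. The Bub1 window held neither motif.

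Over both strands, TAATTA was present in 4.86% of all 33469 windows of this length and in 3 of the 14 windows found for tested hormone genes. CATCTG was present in 14% of all windows and in 5 of the 14, and TATAAA in 12.9% and in 6 of the 14. CCAAT was present in 34.0% of all windows and in 27 of 33 windows of tested mitosis genes, while TTTGAA was present in 16.2% and in 18 of the 33. In 22 windows of DNA replication and G1/S genes CCAAT stood in 13 and TTTGAA in 1. Over all tested genes the shares were 2.7% (TAATTA), 9.14% (CATCTG), 8.45% (TATAAA), 35.9% (CCAAT) and 11.5% (TTTGAA). Genes called islet-high and islet-low below were close for TAATTA (2.38% and 2.31%) and CATCTG (10.0% and 11.1%). For TTTGAA they had 8.53% and 13.3%. A match describes these letters and does not show a binding site.

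Limma's test against 0 passed 7160 of the 12345 probes at an adjusted p under 0.05, which is 58.0%. A probe is called islet-high here when it passed and its mean log2 ratio was at least 1, and islet-low when it passed and its mean was at most -1. This gave 2035 islet-high probes (16.5%) and 2508 islet-low probes (20.3%). All values lay above 0 in 1946 of the islet-high probes and below 0 in 2497 of the islet-low ones. Probes without a gene name numbered 4424, of which 55.6% passed, 14.3% (631) were islet-high and 19.8% (875) islet-low.

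Read from 1 probe per gene, the 7130 named genes had a median of the mean log2 ratio of -0.01. The test passed 58.5% of them, with 1234 islet-high (17.3%) and 1434 islet-low (20.1%), and the counts of gene lists below are to be read against these shares. RT1-A2 and Armc8, both at 1.0, lay just inside the limit for islet-high, and Aamp at 0.9996 and Mvb12a at 0.9989 just outside it. On the low side Tars1 at -1.0 lay just inside and Ide at -0.999 just outside.

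Array bGAL 4 stood apart from the other 4 control arrays. It lacked a value for 3.1% of the probes against 35.4% to 59.6% on the others, and its highest log2 ratio was 7.02 against 9.94 to 12.09. Its SD over probes with a value on every bGAL array was 1.49, and that of the others 1.90 to 1.97. Across the 12345 tested probes, which are not independent replicates, the correlation between bGAL arrays was 0.807 to 0.924. By this measure bGAL 4 did not stand apart, at 0.814 to 0.923 with the others. Without bGAL 4, 1245 genes were islet-high and 1337 islet-low. A ratio is a difference between islets and the pool, not a level, so a gene high in the pool can look islet-low while present in islets. The dyes were not swapped, so dye and tissue cannot be told apart, and the test leaves out the spread of the reference itself. In whole islets, fewer cells of a type and less RNA per cell cannot be told apart.

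**Figure D1:**
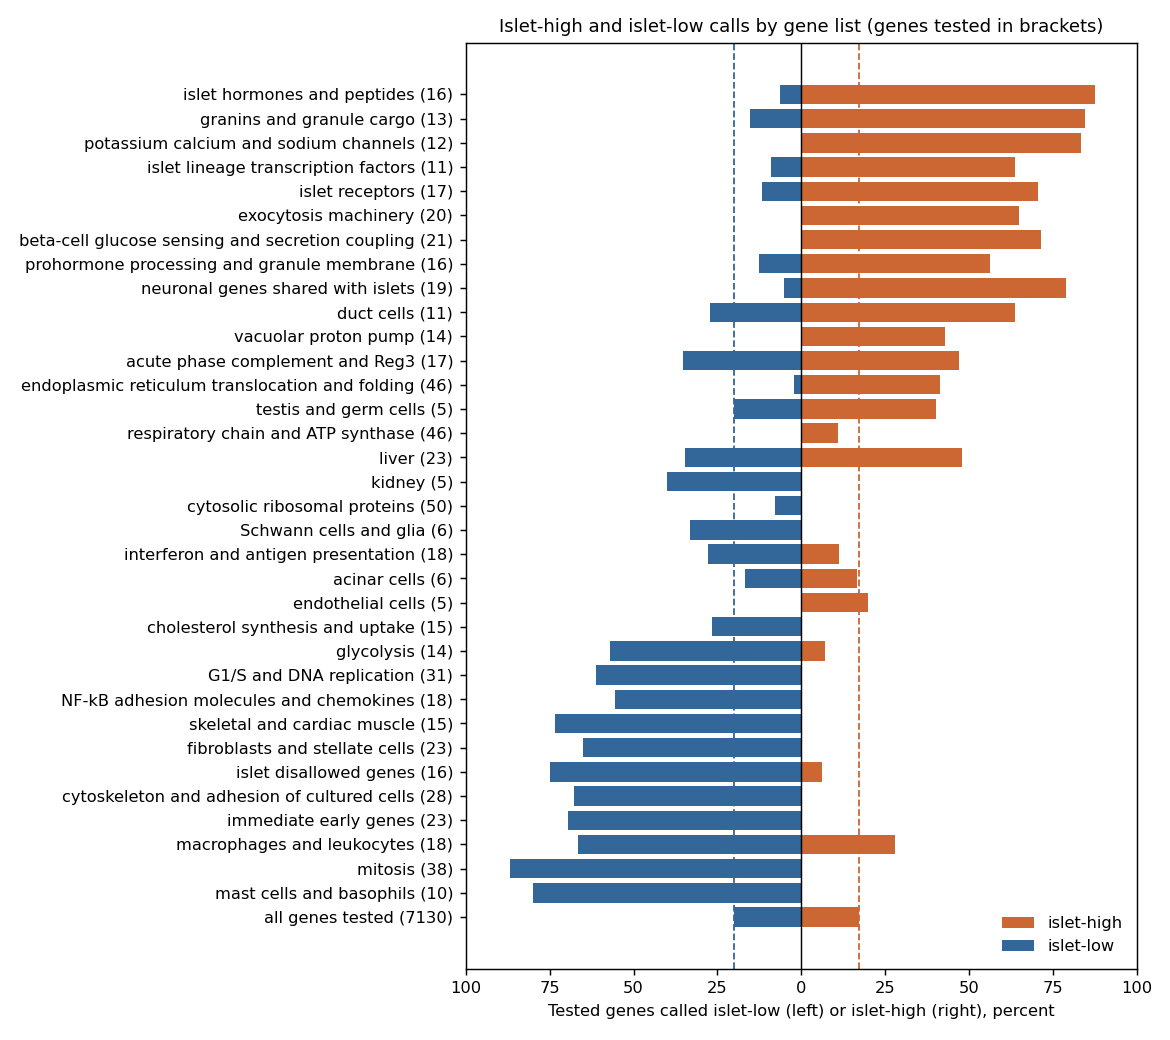
Bars give the percent of the tested genes of each list called islet-high (right, orange) or islet-low (left, blue) over the 5 bGAL arrays, with the number of genes tested in brackets and lists ordered by their median log2 ratio. Dashed lines mark the shares over all 7130 genes, 17.3% and 20.1%. Secretory lists reach far past the right line, and mitosis and mast-cell lists far past the left line.

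The islet hormones were among the groups furthest above the pool. Of 16 measured hormone and neuropeptide genes, 14 were islet-high and 1 islet-low, with a median of 4.03. Ins1, one of the insulin genes of the rat, had log2 ratios of 3.48, 4.46, 3.66, 4.49 and 4.14 on bGAL 1 to 5, a mean of 4.04 ± 0.46 (SD, n = 5) or 16.5-fold (adjusted p = 1.87e-05). Ins2 read 3.56, 4.21, 3.30, 4.21 and 4.18, 14.8-fold on average. For both insulin genes bGAL 1 and 3 were the low arrays, and no array came near 0. The insulin genes are close copies and the sources used here hold no probe sequences, so how far each probe tells them apart was not tested.

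Glucagon and the peptides of the rarer endocrine cells stood as high or higher. Gcg, the glucagon gene of alpha cells, read 5.65, 7.01, 5.29, 5.98 and 6.79 (mean 6.14 ± 0.74, 70.6-fold). Pyy, peptide YY, read 6.21, 6.24, 5.97, 5.75 and 5.94 (mean 6.02 ± 0.20, 65.1-fold), with all 5 arrays close together. Sst, the somatostatin of delta cells, read 4.33, 4.85, 4.63, 4.25 and 5.03 (24.6-fold), and Ppy, pancreatic polypeptide, read 4.64, 5.23, 4.45, 5.09 and 4.88 (29.0-fold). Iapp, the amyloid polypeptide that beta cells release with insulin, averaged 4.47 ± 0.44. Ghrl, the ghrelin gene, was the widest of the strong hormones, with 6.17, 5.31, 5.71 and 4.53 on 4 arrays and 3.15 on bGAL 4.

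Neuropeptides known from the brain were also islet-high: Cartpt at 4.67 ± 0.42, Trh (thyrotropin-releasing hormone) at 4.02 ± 0.21, Npy at 3.92 ± 0.44 and Gal (galanin) at 3.90 ± 0.36. Cck, cholecystokinin, stood lower at 1.78 ± 0.38. Vip, vasoactive intestinal peptide, read 2.37, 1.62, 4.38, 0.76 and 0.53, with a single high array, and its adjusted p of 0.0256 was the largest of the islet-high hormones. Without bGAL 1 or without bGAL 2 its adjusted p was 0.0839 or 0.0630. Penk, the enkephalin precursor, was the only islet-low member, with -3.22, -2.48, -2.64, -2.93 and -3.0. Nts, neurotensin, had no value on bGAL 1, lay within 0.03 of 0 on bGAL 2 and 3, and read -2.18 on bGAL 4 and -0.69 on bGAL 5 (adjusted p = 0.176).

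**Figure D2:**
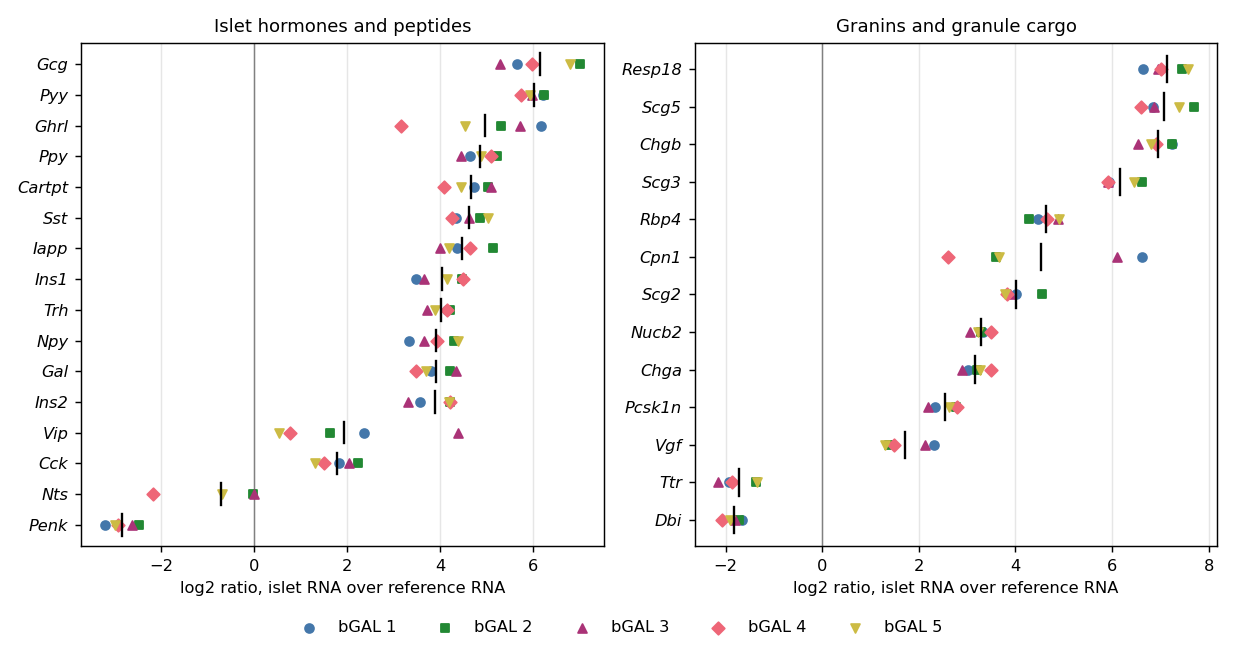
Each point is the log2 ratio of islet over reference RNA on 1 bGAL array and each black tick the mean, for the hormone and peptide genes (left) and the granins and granule cargo (right). All hormones down to Ins2 sit above 3 on every array, and Penk, Ttr and Dbi sit below -1 on every array.

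Proteins that fill and mature the secretory granule followed the hormones, with 11 of 13 granin and cargo genes islet-high, 2 islet-low and a median of 4.01. Chgb, chromogranin B, read 7.24, 7.25, 6.54, 6.90 and 6.81 (mean 6.95 ± 0.30, 124-fold). Resp18, a granule protein of endocrine cells, averaged 7.13 ± 0.38, Scg5, a chaperone of the prohormone convertase encoded by Pcsk2, 7.08 ± 0.45, and Scg3, a granin, 6.17 ± 0.34. In each of these genes the 5 arrays lay within a range far smaller than the distance to 0. Chga, chromogranin A, stood lower at 3.17 ± 0.23, Pcsk1n at 2.54 ± 0.27 and Vgf, the neuroendocrine precursor named in the series title, at 1.72 ± 0.46. Ttr, transthyretin, which alpha cells make but liver makes abundantly, was islet-low at -1.73 ± 0.35, and Dbi, an acyl-CoA-binding protein, at -1.84 ± 0.16.

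Of 16 genes of prohormone processing and the granule membrane, 9 were islet-high and 2 islet-low (median 2.22). Cltrn (collectrin) averaged 6.39 ± 0.37, Ero1b, the oxidase that helps proinsulin fold, 5.55 ± 0.45, and Ica1, an islet autoantigen, 5.33 ± 0.43. Slc30a8, the zinc transporter of insulin granules, read 4.04, 4.69, 3.64, 4.29 and 4.39. The convertases that cut prohormones stood at 3.45 ± 0.48 (Pcsk2) and 3.16 ± 0.22 (Pcsk1), and another Pcsk2 probe at 5.73. The convertase genes of other tissues did not share this: Furin stood at 0.01 ± 0.18 (n = 4, adjusted p = 0.966) and Pcsk5 was islet-low at -1.79 ± 0.16. Qpct, which cyclises the end of some peptides, was islet-low at -2.58 ± 1.56.

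The regulators of islet identity were measured less completely: 31 of 43 listed transcription factors had a probe and 11 were tested. Of these, 7 were islet-high and 1 islet-low, with a median of 3.33. Neurod1 read 4.58, 5.38, 4.76, 4.69 and 4.65 (mean 4.81 ± 0.33), and Nkx6-1, a beta-cell factor, 3.82, 4.14, 3.83, 3.33 and 3.50 (mean 3.73 ± 0.31). Isl1 averaged 5.60 ± 0.97 and Pax6 4.10 ± 1.09, each lower on bGAL 4 and 5 than on the other arrays, and the other Pax6 probes stood at 4.16 to 7.99. Foxa3 averaged 5.38 ± 2.40. Foxa2, an endoderm factor, stood at 3.33 ± 0.30. Rfx6 was past the test at 0.98 ± 0.57, just under the limit, while its other probe stood at 4.396. Hhex, a delta-cell factor also made in liver and blood cells, was islet-low at -1.71 ± 0.24, and Fev (-0.47, adjusted p = 0.0566) and Prox1 (-0.17, adjusted p = 0.481) did not pass.

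Genes that couple glucose to secretion were islet-high in 15 of 21 cases and islet-low in 0 (median 2.23). Slc2a2, the glucose transporter of rat beta cells and of liver, read 6.40, 7.01, 6.66, 6.63 and 6.37 (mean 6.62 ± 0.26, 98.0-fold). Gad1, which makes the transmitter GABA, averaged 7.12 ± 0.66, Gjd2, the gap junction protein that joins beta cells, 5.15 ± 0.44, and Abcc8, the sulfonylurea receptor of the potassium channel closed by ATP, 3.72 ± 0.65. Pc, pyruvate carboxylase, stood at 2.81 ± 0.51. Glud1, glutamate dehydrogenase, passed the test at 0.78 ± 0.07 under the limit, while the mitochondrial carrier Slc25a11 at 0.14 (adjusted p = 0.401) and Gamt, an enzyme of creatine synthesis, at -0.24 (adjusted p = 0.454) did not pass. Trpm5, a cation channel, averaged 6.21 ± 2.61, a far wider spread than that of Slc2a2.

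Receptors that tune secretion were islet-high in 12 of 17 cases and islet-low in 2 (median 2.68). Gipr, for the gut hormone GIP, read 5.2, 5.51, 5.02, 4.97 and 5.37 (37.1-fold), and Glp1r, for GLP-1, 5.79, 6.55, 5.76, 2.34 and 5.79 (38.0-fold). The means of these incretin receptors were close, but Glp1r was far lower on bGAL 4 than on the other arrays. Gpr119, a lipid receptor, averaged 6.69 ± 0.68, Casr, the calcium-sensing receptor, 5.10 ± 0.54 and Gcgr, the glucagon receptor, 4.64 ± 0.23. Adora1, an adenosine receptor, was islet-low at -1.34 ± 0.54 and Grm4, a glutamate receptor, at -1.99 ± 0.20.

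Ion channels of excitable cells gave 10 islet-high and 0 islet-low genes of 12 tested (median 3.40), though 35 of the 45 listed had a probe. Kcnk3, a background potassium channel, read 6.79, 6.58, 6.32, 5.88 and 6.31, and Kcnj8, an inward rectifier, averaged 4.98 ± 0.29. Scn9a, a sodium channel, averaged 7.81 ± 3.79 and ran from 11.58 on bGAL 3 to 2.29 on bGAL 4. By gene name alone, 16 of 28 potassium channel genes and their partners were islet-high and 2 islet-low (median 1.35). The highest by mean were Kcne3 at 6.90 ± 3.01, Kcnip1 at 6.86 ± 2.99 (n = 4) and Kcnk12 at 6.68 ± 3.27 (n = 4), all with a far wider spread than Kcnk3 at 6.38 ± 0.34, and the islet-low ones were Kcnq5 at -3.52 and Kcnn4, a calcium-activated channel of blood cells, at -2.70.

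The machinery of granule release had 13 islet-high and 0 islet-low genes of 20 (median 2.39). Syt4, a synaptotagmin, averaged 5.53 ± 1.04, Sytl5, a Rab effector, 4.35 ± 0.35, and Syp, synaptophysin of vesicle membranes, 4.04 ± 0.18. Snap25, a SNARE protein of the plasma membrane, read 8.17, 5.61, 6.0, 0.75 and 3.40, above 0 on all arrays but with bGAL 4 near it, while its other probe averaged 5.63 ± 0.20 (n = 5). Other members stood near 0: Nsf, which recycles SNARE proteins, at 0.07 ± 1.28 (n = 4, adjusted p = 0.913), Vamp2 at 0.19 ± 0.13 (n = 4, adjusted p = 0.264) and Sv2a at 0.00 ± 0.26 (adjusted p = 0.991), and Stx4 was past the test at -0.68 ± 0.36.

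Genes that islets share with neurons were islet-high in 15 of 19 cases (median 1.91). Nefm, a neurofilament protein, averaged 8.42 ± 2.78, Rtn1 3.41 ± 0.30 and Ina, an intermediate filament, 2.84 ± 0.44. Uchl1, a ubiquitin hydrolase used as a neuroendocrine marker, is in the same list at 2.82 ± 0.30. The only islet-low member was Tph1 at -3.56 ± 0.79, the enzyme that starts serotonin synthesis outside the brain.

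Genes of the endoplasmic reticulum, where prohormones fold, stood above the pool by less: 19 of 46 genes were islet-high, 1 was islet-low and the median was 0.78. Hspa5, the main chaperone of this compartment, read 3.19, 3.28, 3.54, 3.10 and 3.44, 9.90-fold on average with little spread. Dnajb9, a co-chaperone, averaged 3.21 ± 0.70, Ddit3, a stress factor, 2.56 ± 0.40, and Sec61b, part of the translocation pore, 2.39 ± 0.45. Ero1a was the islet-low member at -2.18 ± 0.29, against 5.55 for its relative Ero1b. Calr at -0.70 ± 0.31 and Stt3b at -0.96 ± 0.58 passed the test under the limit, while another Stt3b probe was islet-low at -1.30 ± 0.28. The vacuolar proton pump, which acidifies granules, had 6 of 14 genes islet-high and 0 islet-low (median 1.05), led by Atp6v1e1 at 1.95 ± 0.18 and Atp6v0b at 1.83 ± 0.33.

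**Figure D3:**
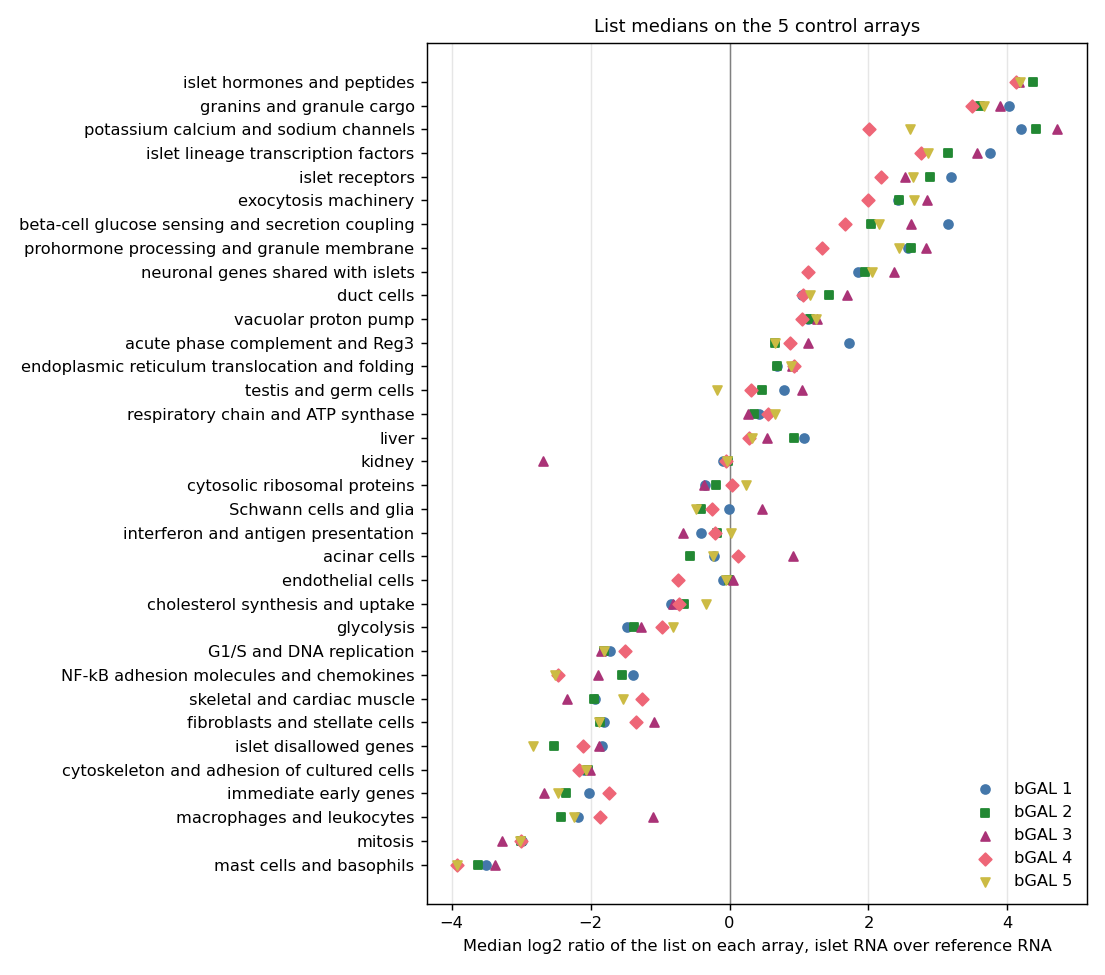
Each point is the median log2 ratio of a gene list on 1 bGAL array, with lists ordered by the median of their gene means. From the hormones at the top, with medians of 4.12 to 4.37, to mast cells at the bottom, with -3.92 to -3.38, the arrays give a similar order. The kidney list falls to -2.68 on bGAL 3. Each median is over the genes with a value on that array, and of the 5 tested kidney genes Slc22a6, Aqp2 and Kap had n = 4.

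At the other end, genes of dividing cells stood below the pool. Of 38 mitosis genes 33 were islet-low and 0 islet-high, with a median of -3.08 and medians of -3.27 to -2.99 on single arrays. Mki67, a marker of proliferating cells, read -5.36, -4.03, -4.80, -4.0 and -4.55 (mean -4.55 ± 0.57), and Bub1, a kinase of the spindle checkpoint, -5.08, -5.12, -6.16, -5.03 and -5.86. All 5 arrays were far below 0 for both genes. Kif11, a spindle motor, averaged -4.81 ± 0.52, Kif20b, a motor of cell division, -4.26 ± 1.03, and Hmmr, a spindle-binding protein, -4.06 ± 0.45. The members nearest 0 did not pass: Nusap1 at -0.12 (adjusted p = 0.530), Prc1 at -0.15 (adjusted p = 0.465), Ncapg at -0.33 (adjusted p = 0.172) and Cenpf at -0.39 (adjusted p = 0.139). Another probe of Prc1 stood at -4.83 and another of Cenpf at -2.88, both islet-low, so these genes depended on the probe read.

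The genes of DNA replication and the G1/S step were islet-low in 19 of 31 cases and islet-high in 0 (median -1.46). Ccna2, cyclin A, averaged -4.67 ± 0.58, E2f8, a repressor active in S phase, -4.37 ± 0.58, and Cdc6, which loads the replicative helicase, -3.65 ± 0.81. Among the helicase subunits, Mcm5 stood at -3.38, Mcm6 at -2.70, Mcm4 at -2.43 and Mcm7 at -1.95. Ccnd1, cyclin D, did not pass at 0.16 ± 0.48 (n = 4, adjusted p = 0.557), nor did Cdk4 at -0.43 ± 0.40 (adjusted p = 0.0789). By name, 9 of 15 kinesins were islet-low and 1 islet-high, and that 1 was Kif21a at 2.37.

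Markers of connective tissue and of spread, cultured cells formed another islet-low block. Of 23 fibroblast and stellate-cell genes 15 were islet-low and 0 islet-high (median -1.67), with the collagen cross-linking enzyme Lox at -4.21 ± 0.40, the matricellular genes Ccn1 at -3.58 ± 1.02 and Ccn2 at -3.53 ± 0.16, and Sparc at -3.07 ± 0.21. The defining collagens stood closer to the pool, with Col1a2 at -1.75 ± 0.29 and Col3a1 at -1.50, -1.16, -0.83, -0.72 and -1.07. The marker Lum did not pass at -0.78 (adjusted p = 0.0592), nor did Postn at -0.62 (adjusted p = 0.228), Ccn4 at -0.54 (n = 4, adjusted p = 0.110) and Timp1 at 0.40 (adjusted p = 0.0609). The markers Dcn, 5.61 and 0.44 on bGAL 3 and 4, and Pdgfrb, -0.0, 0.06 and -0.07 on bGAL 1, 4 and 5, had too few values. Of 28 genes of cytoskeleton and adhesion 19 were islet-low and 0 islet-high (median -2.05). Cav1, the coat protein of caveolae, averaged -5.67 ± 1.17, Anxa1 -4.40 ± 0.42, Tubb6 -4.26 ± 1.10 and Actb, a widely used control gene, -0.99 ± 0.14. All 9 annexin genes, which encode calcium-dependent membrane-binding proteins, lay below 0 and passed the test. They ran from Anxa8 at -5.50 to Anxa7 at -0.64, and 7 were islet-low.

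Of 9 keratins, the intermediate filaments of epithelia, 2 were islet-high and 5 islet-low, and 1 was islet-high without bGAL 4. Krt19 of simple epithelia read 3.07, 1.62, 2.48, 2.14 and 2.39, and Krt18 averaged 1.10. The islet-low ones included the skin keratins Krt16 at -4.09, Krt10 at -4.08, Krt15 at -3.94 and Krt14 at -3.23. Krt17 passed the test at -0.81 under the limit, and Krt31 did not pass at -0.05 (adjusted p = 0.751). Of 3 claudins tested, the tight-junction genes Cldn7 (4.16) and Cldn1 (3.38) were islet-high. Of 18 cadherins and protocadherins, which join cells to each other, 5 were islet-high and 5 islet-low, from Pcdha4 at 6.69 ± 3.69 to Cdh17 of intestine at -4.93, and the epithelial Cdh1 stood at 2.51.

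Blood-cell genes were mostly islet-low, with a small group on the other side. Mast-cell and basophil genes gave 8 islet-low and 0 islet-high of 10 (median -3.67), including the lowest named gene of the arrays. That gene, Ms4a2, a subunit of the IgE receptor, read -7.94, -7.71, -7.70, -5.67 and -8.83 (190-fold below the pool). Fcer1a of the same receptor averaged -4.85 ± 0.20 and Gata2, a blood-cell factor, -4.62 ± 0.19. Of 18 macrophage and leukocyte genes 12 were islet-low, among them the T-cell receptor parts Cd3d at -4.02 ± 0.23 and Cd3e at -3.92 ± 0.77 and the leukocyte antigen Ptprc at -2.24 ± 0.97. The 5 islet-high members were C1qa at 4.87 ± 2.08 and C1qb at 3.17 ± 0.51, parts of complement C1q made by macrophages, Cd74, the invariant chain of class II antigen presentation, at 2.72 ± 0.51, Cd163 at 1.58 ± 1.19 and Adgre1 at 1.49 ± 0.89. Cd74 read 2.20, 3.28, 2.34, 2.53 and 3.26, above 0 on every array, while Cd14 of the same lineage stood at -1.20 ± 0.25.

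Fast-response and inflammatory genes were also below the pool. Of 23 immediate early genes 16 were islet-low and 0 islet-high (median -2.13). Areg, a growth factor of the EGF family, averaged -5.47 ± 1.05, Egr2 -5.32 ± 2.13, Klf4 -5.05 ± 0.21 and Myc, which promotes growth, -4.59 ± 0.92. Crem at 0.95 ± 0.66 and Arc at 0.91 ± 0.29 lay above 0 and passed the test under the limit. Another Crem probe was islet-high at 1.26 ± 0.28 (n = 5), and without bGAL 4 the list had 1 islet-high gene. Of 18 NF-kB target genes 10 were islet-low and 0 islet-high (median -1.57), with Il6 at -5.04 ± 0.92, and by name 8 of 10 chemokines were islet-low. The chemokine Cxcl1 read -4.64, -5.31, -4.30, -5.22 and -5.63, and Ccl2 averaged -4.12 ± 0.61. Cxcl10, a chemokine of the interferon response, did not pass at 0.27 ± 0.31 (adjusted p = 0.178). Interferon and antigen-presentation genes were split, with 2 islet-high and 5 islet-low of 18 (median -0.12).

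Liver genes went both ways, with 11 islet-high and 8 islet-low of 23 (median 0.43). Alb, albumin, read -4.29, -4.07, -3.97, -4.39 and -4.11, and F2 (prothrombin) averaged -3.99 ± 0.42 and Kng1 (kininogen) -3.91 ± 0.81. Yet Apoh, an apolipoprotein, stood at 4.24 ± 2.02, Serpina1, a protease inhibitor, at 3.27 ± 0.39 and Arg1 (arginase) at 3.10 ± 0.19. The acute phase and complement genes divided in the same manner, with 8 islet-high and 6 islet-low of 17 (median 0.96). Lcn2, an iron-binding lipocalin, read 4.87, 4.75, 4.08, 5.10 and 4.26, and Serping1, the C1 inhibitor, averaged 4.44 ± 0.22. Reg3b, a secreted lectin of the pancreas, averaged 8.68 ± 2.88 and fell to 3.75 on bGAL 4. On the other side C1r, the protease that Serping1 inhibits, stood at -4.28 ± 0.95 and C1s at -3.04 ± 0.16. Muscle genes had 11 islet-low and 0 islet-high of 15 (median -1.65), led by the natriuretic peptide Nppb at -3.80 ± 1.21 and the calcium store protein Casq2 at -3.33 ± 0.73.

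The labelled tissue was compared with the defining markers of islet cells and of the cells that can come with them. The direction of the ratio was itself taken partly from the insulin and albumin probes, so those probes are no check of the tissue. The beta-cell markers Ins1, Ins2, Iapp, Nkx6-1, Slc2a2 and Slc30a8 were all islet-high, as were Gcg, Sst, Rbp4 (4.64 ± 0.27), Ppy and Pyy, while Ttr and Hhex were islet-low. Irx1 and Irx2 of alpha cells had a value on bGAL 4 alone. Of 29 acinar genes 23 had a probe and 6 were tested, with 1 islet-high (Cel, a lipase, 1.31 ± 0.53) and 1 islet-low (Cela1, an elastase, -2.90 ± 0.25). The digestive enzymes Ctrb1 at -0.13 (n = 4, adjusted p = 0.600) and Cpa1 at -0.29 (adjusted p = 0.204) did not pass, and Prss1, Cpb1 and Pnlip had a value on bGAL 4 alone, 2.51, 0.24 and 0.20. The summed content of these cells in the islets was not tested, because a ratio to the pool is not a level.

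Of 11 duct-cell genes 7 were islet-high and 3 islet-low (median 1.47). Lcn2, which is also in the acute phase list, and Krt19 led. Spp1, osteopontin, read -3.19, -3.35, -2.87, -3.43 and -3.54, Car2 averaged -2.53 ± 0.65 and Aqp1 -2.29 ± 0.32. The duct markers Cftr, -0.46 on bGAL 4 alone, and Muc1, -0.82 and -0.0 on bGAL 4 and 5, had too few values. Krt8, also with too few values, read 1.88, 1.79 and 2.27 on bGAL 2, 4 and 5. Of 5 endothelial genes tested 1 was islet-high (Nos3, the endothelial nitric oxide synthase, 2.10 ± 1.06, n = 4) and 0 islet-low. Esm1 at -0.95 ± 0.77 (adjusted p = 0.0310) and Flt1 at -0.57 ± 0.32 (n = 4, adjusted p = 0.0389) passed below 0 under the limit. Egfl7 passed above 0 at 0.51 ± 0.39 (adjusted p = 0.0451), and Sox17 did not pass at -0.34 (n = 4, adjusted p = 0.300). A further 10 endothelial genes had a probe but too few values. Of these, Emcn read 8.78, 3.1 and 9.02 and Tie1 3.82, 2.68 and 6.3 on bGAL 2, 4 and 5. Sox18 read 2.28 and 3.33 and Plvap -0.22 and -0.03 on bGAL 4 and 5, and Cdh5 and Vwf had a value on bGAL 4 alone. Icam2, also with too few values, read -0.14, -2.25 and -0.68 on bGAL 1, 4 and 5. Of 6 glial genes Pmp22 at -3.08 ± 0.35 and Cspg4 at -2.15 ± 0.19 were islet-low, and S100b was past the test at -0.60 ± 0.31 (n = 4). Ngfr at 0.83 ± 0.16 and Cnp at 0.38 ± 0.24 passed above 0 under the limit, and Olig1 did not pass at 0.40 ± 0.50 (adjusted p = 0.138).

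Energy metabolism was uneven. Glycolysis genes were islet-low in 8 of 14 cases and islet-high in 1 (median -1.24). Ldha, lactate dehydrogenase A, read -3.0, -2.91, -2.92, -3.44 and -3.22, 8.55-fold below the pool, and its other probe averaged -3.60. Hk2, a hexokinase of muscle and growing cells, averaged -4.09 ± 1.02, Pgk1 -2.57 ± 0.25, and Slc2a1, the glucose transporter of most cell lines, -1.79 ± 0.27, against 6.62 for Slc2a2. The islet-high member was the neuronal enolase Eno2 at 1.38 ± 0.58. Pkm, pyruvate kinase, did not pass at 0.23 ± 0.28 (adjusted p = 0.208). The respiratory chain had 5 islet-high and 0 islet-low genes of 46 (median 0.46), both under the shares over all genes, with Cox7b highest at 1.92 ± 0.20. Without the 2-fold limit, 25 of the 46 passed the test above 0 and 3 below 0, against 2049 and 2120 of all 7130 genes.

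Genes known from earlier work as silent in islets, often called disallowed, were islet-low in 12 of 16 cases. The median was -1.98 and Ldha is among them. Slc16a1, a carrier of lactate and pyruvate, read -3.80, -3.29, -2.76, -4.05 and -4.14, and Lmo4, a transcription cofactor, averaged -3.67 ± 0.26 and Mgst1, a glutathione transferase, -3.51 ± 0.63. Of the other 4, Cat, catalase, was islet-high at 2.63 ± 1.10 and Acot7, a thioesterase, passed the test at -0.62 ± 0.15 under the limit. Other Acot7 probes stood at -0.81 ± 0.42, also past the test under the limit, and at 0.01 ± 0.10 (n = 4, adjusted p = 0.960). Tgm2 at 0.25 (adjusted p = 0.250) and Aldh1a3 at -0.61 (n = 4, adjusted p = 0.218) did not pass. Cholesterol synthesis had 4 islet-low and 0 islet-high genes of 15 (median -0.70), led by Stard4, a sterol carrier, at -2.53 ± 0.17.

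Cytosolic ribosomal proteins lay near the pool, with 4 of 50 islet-low, 0 islet-high and a median of -0.05, whose sign turned without bGAL 1 (0.01). The lowest were Rpl30 at -2.11 ± 0.69 and Rpl31 at -1.63 ± 0.20. Proteasome subunits were alike, with 2 islet-high and 3 islet-low of 34 (median -0.15), and mitochondrial ribosomal proteins had 7 and 1 of 59 (median 0.26).

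The 15 genes with the highest means were Crispld1 (9.76), F13b (8.73), Reg3b (8.68), Or56b1 (8.54), Acvr1c (8.43), Nefm (8.42), Tenm2 (8.04), Cxxc4 (7.90), Scn9a (7.81), Baalc (7.78), Usp51 (7.70), Tacr3 (7.68), Cntnap4 (7.64), Rnf138l1 (7.59) and Nrtn (7.46). Crispld1, a secreted cysteine-rich protein, read 11.45, 10.66, 11.65, 5.38 and 9.65. F13b, a subunit of coagulation factor XIII, read 9.58, 10.89, 11.13, 2.23 and 9.83. Acvr1c, a receptor for activin-type ligands known from beta cells, read 9.96, 10.48, 10.46, 1.47 and 9.76. In all 15 genes bGAL 4 was the lowest array.

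Ordered instead by the value closest to 0 among the 5 arrays, which was chosen after the values were seen, the leading genes were Resp18 (6.64), Scg5 (6.59), Chgb (6.54), Gad1 (6.48), Slc2a2 (6.37), Cltrn (6.16), Gabrb1 (6.06), Scg3 (5.91) and Kcnk3 (5.89). These are granule proteins, a transporter, a transmitter enzyme and membrane channels, and their ranks by mean were 19 to 47. Of the 15 genes with the highest means, Usp51 (5.80), Crispld1 (5.38), Nefm (5.27) and Or56b1 (4.86) were among the first 20 by this order. Among the 316 islet-high probes with a mean of at least 4, 138 had an SD of at least 2 and 108 an SD under 1. The median of the 138 was 8.04, 7.59, 7.40, 2.77 and 4.55 on bGAL 1 to 5, and that of the 108 was 4.83, 5.02, 4.69, 4.30 and 4.70. On the Nkx6.1 arrays the 138 probes had a median of 6.06 on replicate 1 and 1.77 to 2.54 on the others, and on the Pdx1 arrays 2.80 to 2.94. The 138 were picked by their bGAL mean and SD, so a split between bGAL arrays and lower medians on other arrays are favoured by that choice. Within this class the largest medians stood on bGAL 1, 2 and 3 and on Nkx6.1 replicate 1. The part of the share of empty values in them was not tested.

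The low end was tighter. Of 213 islet-low probes with a mean of at most -4, 2 had an SD of at least 2 and 144 an SD under 1. The 15 lowest genes were Ms4a2 (-7.57), Rgs18 (-6.57), Akr1c14 (-6.20), Mlf1 (-6.15), Crisp1 (-6.05), Omd (-5.70), Cav1 (-5.67), Akr7a3 (-5.67), Apbb1ip (-5.65), Cyp3a9 (-5.62), Serpinb10 (-5.58), Tnfrsf17 (-5.51), Anxa8 (-5.50), Areg (-5.47) and Bub1 (-5.45). As background, Ms4a2, Rgs18, Apbb1ip and Tnfrsf17 are known from blood cells, Crisp1 from epididymis and Omd from bone matrix. Crisp1 read -6.20, -5.95, -5.85, -5.96 and -6.29, the steadiest of them. Mlf1 was low by the probe read here, while its other probe stood at -0.96 and did not pass.

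**Figure D4:**
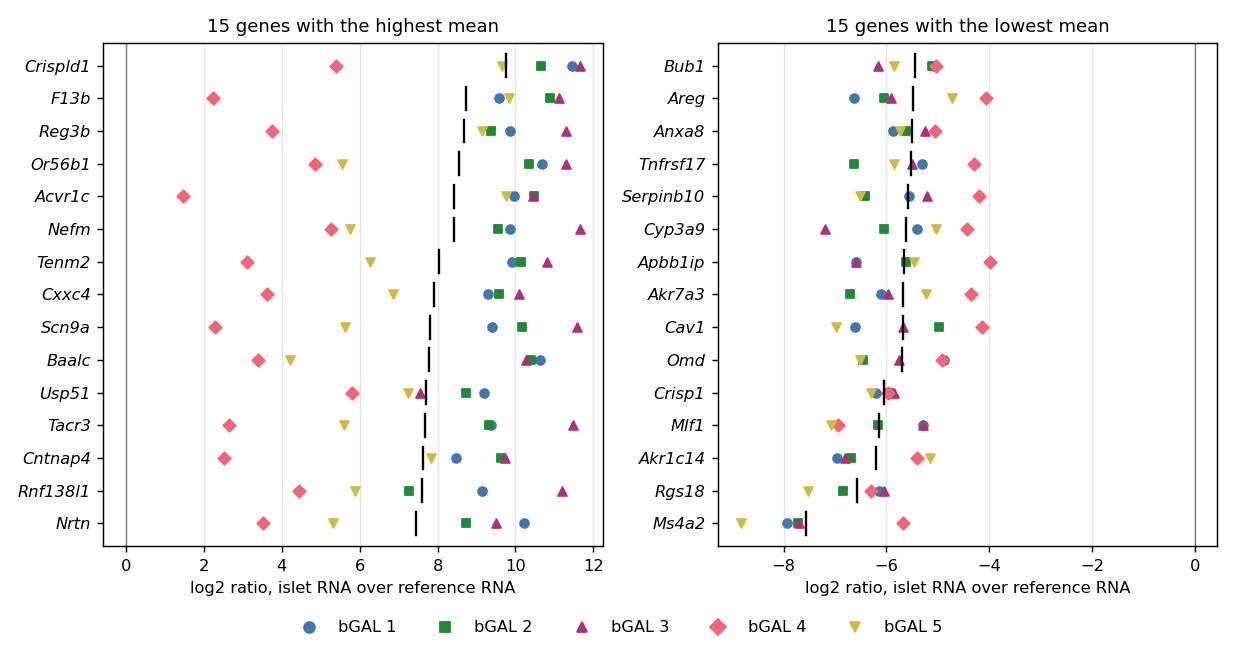
Each point is the log2 ratio of islet over reference RNA on 1 bGAL array and each black tick the mean, for the 15 genes with the highest mean (left) and the 15 with the lowest (right). On the left bGAL 4 is the lowest array for every gene, at 1.47 to 5.80. For some genes bGAL 5 lies near it, as for Nefm (5.27 on bGAL 4 and 5.74 on bGAL 5) and Or56b1 (4.86 and 5.55). On the right the arrays lie closer together.

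Large families by name showed which were balanced. Solute carriers had 29 islet-high and 38 islet-low genes of 169, with a median of 0.01 whose sign turned under quantile normalization (0.00) and without bGAL 1, 2, 3 or 4. Its ends were Slc2a2 at 6.62 and Slc5a3, an inositol carrier, at -3.78. Cytochromes P450 had 6 islet-high and 8 islet-low of 27, from Cyp2f4 at 3.53 to Cyp3a9 at -5.62. Serpins had 5 islet-high and 11 islet-low of 20, with Serping1 at the top and Serpinb10, Serpinb5 (-5.25) and Serpinb11 (-4.56) of the intracellular branch at the bottom. Of 856 olfactory receptor genes with a probe, 205 were tested, 29 were islet-high (14.1%) and 6 islet-low (2.93%), with a median of 0.39. The highest, Or56b1, read 10.67, 10.34, 11.31, 4.86 and 5.55, so it belongs to the wide class above. These receptors are close copies of each other, and how far a probe tells them apart was not tested.

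The same genes were then followed to the islets given Nkx6.1 or Pdx1, in 1 limma model over all 13 arrays in which both comparisons share the 5 bGAL arrays. Over 17965 probes, 0.64% differed between Nkx6.1 and bGAL (0.412% higher, 0.228% lower) and 0.546% between Pdx1 and bGAL (0.44% higher, 0.106% lower). Of the 46 genes named as hormones or extremes, 0 passed for Nkx6.1 and 4 for Pdx1, and 23 had an unadjusted p under 0.05 in each. The share of all probes under that unadjusted limit was not counted. The 30 extremes were picked by their bGAL values, so a move back towards the pool is favoured by that choice. Among the 16 hormones 0 passed for Nkx6.1, with 1 at an unadjusted p under 0.05, and 2 passed for Pdx1, with 4 at that unadjusted limit.

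Nts read 6.38, 6.83 and 6.26 on the Pdx1 arrays, all far above the 4 bGAL values, a difference of 7.21 (adjusted p = 0.00288). Penk read -1.27, -0.81 and -1.06, above all bGAL values but still below the pool, a difference of 1.81 (adjusted p = 0.0385). With the replicate number as a block neither of these calls passed, and the 1 call for Pdx1 was Crisp1 (2.39, adjusted p = 0.0401). Ins1 read 3.79, 7.49, 4.86, 4.02 and 5.13 under Nkx6.1 and 5.25, 4.26 and 4.62 under Pdx1, and Nkx6.1 replicate 2 was the high array for nearly all hormones. Sst read 3.03, 6.38, 2.49, 3.07 and 2.67 under Nkx6.1, with 4 arrays below all bGAL values and 1 above them, and its difference of -1.09 did not pass (adjusted p = 0.417). Leaving out bGAL 4 raised the counts to 18 of 46 for Nkx6.1 and 15 of 46 for Pdx1, among them F13b at -9.01 and -6.10 against bGAL. F13b had 3 values under Nkx6.1. Apart from Ghrl, Nts and Penk under Pdx1, these calls were of extremes picked by their bGAL values. In the genes of the high end bGAL 4 was the lowest array, so its removal raised their bGAL mean. The share over all probes without bGAL 4 was not counted.

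**Figure D5:**
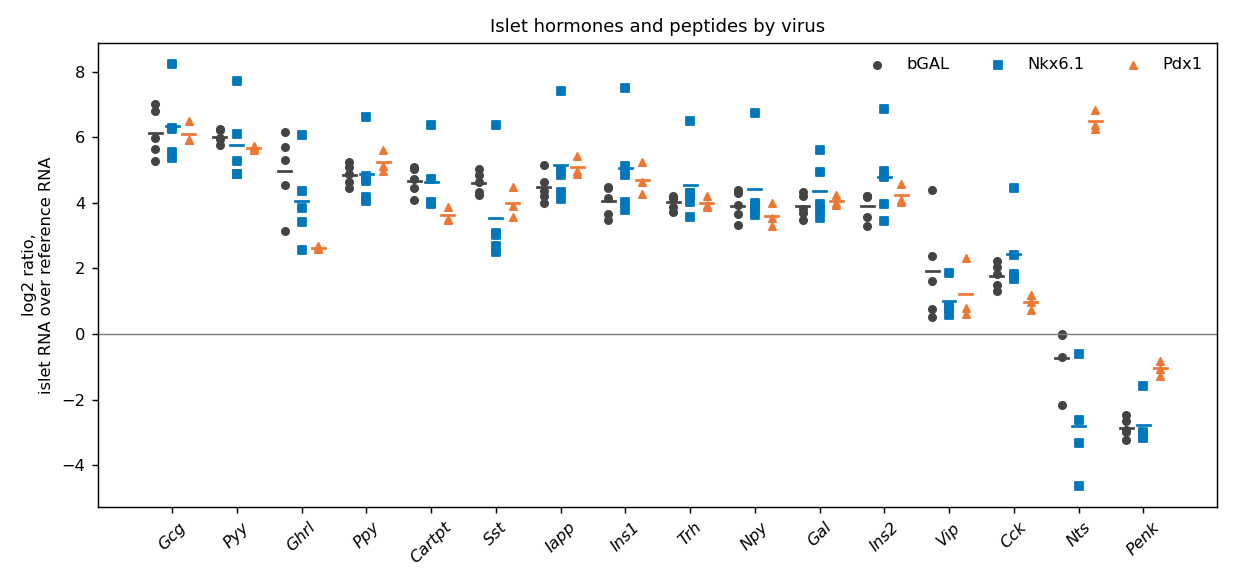
Each point is the log2 ratio of islet over reference RNA on 1 array, for islets given bGAL (5 arrays), Nkx6.1 (5) or Pdx1 (3), and each bar is the group mean. Nts under Pdx1 lies at 6.26 to 6.83, apart from both other groups, and a single Nkx6.1 array, replicate 2, is the high square for most hormones.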

How the data were processed

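RNA of islets given a bGAL, Nkx6.1 or Pdx1 adenovirus was labelled with Cy5 and hybridized with Cy3-labelled rat reference RNA to spotted oligonucleotide arrays, per the labels. The deposited values were read as log2 ratios of islet over reference with each array already near a median of 0. The log base was inferred from their range, and the direction from the dyes together with the insulin and albumin probes. The sources used here do not give the background correction, the normalization or the rule for empty values. With ratios alone, signal strength is unknown, and precision is limited by the number of arrays.

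Control spots (22 of 26984 probes) were left out. Of the rest, 15807 carried 1 symbol, of which 3713 were updated through RefSeq names, 60 were unmatched, and 0 carried several. The sources used here hold no probe positions.

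Each probe with at least 4 bGAL values was tested against 0 with limma 3.58.1 (R 4.3.3; intercept model, two-sided, Benjamini-Hochberg over 12345 probes). An exact sign test over 5 arrays could not pass 0.05, so none was used. Nkx6.1 and Pdx1 were compared with bGAL in 1 model over 13 arrays for probes with at least 2 values per group. On simulated data for the bGAL test, 41% of probes with a true log2 ratio of size 1 and 81% with size 2 were called. Only 100 of 12345 probes were changed at each size, against 58.0% passing in the data, and SDs were shuffled between probes. The adjusted limit was therefore stricter there, and these shares do not give the recovery in the data. A gene was read from the probe with most values and, at a tie, the mean closest to 0.

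Members, lists and families were chosen with earlier results of these data known, so lists carry counts and medians and no test. Named are the measured hormones, the 15 highest and 15 lowest genes with 5 values on the same side of 0, up to 5 members at each end of a list, defining markers, and members said to be at a limit or in the order by the value closest to 0, chosen after their values were seen. Alternatives were treat, other filters and normalizations, and leaving out each replicate.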

Additional observations from a re-analysis of the deposited data

Results flagged for a closer look

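Within the 5 bGAL arrays, 82 sets of values (named genes and list medians) were examined for a single array far from the other 4 by Dixon's criterion at 95%, and 9 met it. Chance alone gives about 1 in 20 for unrelated sets. These sets share the 5 arrays and some genes, and the extremes were picked by their bGAL values, so the 9 cannot be set against that rate. For 4 genes of the high end the distant array was bGAL 4, with log2 ratios of 2.23 for F13b, 3.75 for Reg3b, 1.47 for Acvr1c and 2.51 for Cntnap4, each below the other arrays. The same array gave the lowest median of prohormone processing genes, 1.33, and of endothelial genes, -0.74. On bGAL 2 the hormone median of 4.37 was the high value. On bGAL 3 the medians of mitosis genes, -3.27, and of kidney genes, -2.68, were the low values. A list median was over the members with a value on that array, so its members could differ between arrays. Slc22a6, Aqp2 and Kap of the kidney list and Nos3, Flt1 and Sox17 of the endothelial list had n = 4.

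Between viruses, 4 named genes differed from bGAL under Pdx1 in limma's test: Nts by 7.21, Penk by 1.81, Mlf1 by 2.54 (adjusted p = 0.0417) and Crisp1 by 2.41 (adjusted p = 0.00407). Every Pdx1 array lay above every bGAL array for each of the 4. Mlf1 and Crisp1 were picked as lowest under bGAL. With the replicate block the calls of Nts, Penk and Mlf1 were lost.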

How the results depend on the processing

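Under treat, which asks for a ratio beyond 1 rather than beyond 0, 2418 probes passed, 1102 islet-high and 1316 islet-low. With named probes alone 4720 passed and 1635 were islet-low, fewer because fewer were tested. The other alternatives kept these counts within 1.5 times. Of 688 checks on named genes 685 kept their call, 0 reversed, and 3 lost it, all for Vip (treat, adjusted p = 0.282, and without bGAL 1 or 2). Among list medians, 692 of 737 checks moved by less than the spread between arrays, and 5 turned sign beyond it: glia to 0.38 and kidney to -3.16 with values on all 5 arrays, kidney to -2.99 without values within 0.01 of 0, and solute carriers to -0.0358 without bGAL 1 (-0.0358 to 0.00354 over the arrays left out in turn) and to -0.0557 by the mean over probes. With values on all 5 arrays, genes with n = 4 leave a list: Slc22a6, Aqp2 and Kap of kidney, and S100b of glia. The cause of the other turns was not tested. Acinar genes turned to 0.31 with values on all 5 arrays.

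Deviations from the group mean had correlations of -0.239 to 0.475 between arrays of the same replicate number. The highest were 0.475 for bGAL 1 with Nkx6.1 1 and 0.329 for bGAL 4 with Nkx6.1 4. Arrays of different numbers were not compared, so whether the numbers pair the arrays was not tested. With the replicate block, 1 named gene passed for Nkx6.1, Akr7a3 at 2.20 (adjusted p = 0.0465), and 1 for Pdx1, Crisp1. Leaving out 1 array gave 0 to 18 for Nkx6.1, with 18 without bGAL 4, 3 without Nkx6.1 replicate 2 and 1 without Nkx6.1 replicate 1, and 1 to 15 for Pdx1, with 15 without bGAL 4, 1 without Pdx1 replicate 2 and 2 without any of bGAL 2, bGAL 5, Nkx6.1 3, 4 or 5, or Pdx1 1 or 3. Without bGAL 4, Nts, Penk, Mlf1 and Crisp1 also passed for Pdx1. Most calls without bGAL 4 were of extremes picked by their bGAL values, and no share over all probes was counted for that setting.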

Other observations

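Smaller groups of other tissues gave single strong genes. Among 5 kidney genes the uptake receptors Lrp2 at -2.99 ± 0.91 and Cubn at -3.33 ± 0.53 were islet-low, and the other 3 did not pass. Among 5 testis genes Prm1, a sperm protamine, stood at 5.42 ± 2.44 and Spa17, a sperm surface protein, at 2.73 ± 0.45, both islet-high, and Odf2 was islet-low at -1.14. Of 4 pituitary and thyroid genes 0 were called islet-high or islet-low, and Calca, calcitonin, passed the test at 0.89 ± 0.28. Of 2 lung genes 0 were called either.

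Further families were counted by name. Of 11 integrins 6 were islet-low and 1 islet-high, from Itgb7 at -3.56 to Itgb6 at 2.55. Of 8 S100 calcium-binding proteins 4 were islet-low, with S100a6 at -3.17 and S100a4 at -3.15, and S100a1 was islet-high at 1.40. Interleukins and their receptors had 9 islet-low and 1 islet-high of 24, the latter being Il6st, the shared signalling chain of the interleukin 6 family, at 2.99. Rab GTPases, which steer vesicle traffic, had 6 islet-high and 3 islet-low of 32, from Rab39a at 4.20 and Rab27a at 3.62, a Rab of secretory granules, to Rab38 at -2.48. Glutathione transferases had 3 and 4 of 9, with Gstm3 at 3.06 and Gstm5 at -1.83.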
